A study of Arabidopsis thaliana with 24 samples.

Results

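The genes described here were 97 Arabidopsis thaliana genes whose transcript level was at least 2-fold lower in tt4, a chalcone synthase (CHS) mutant, than in the wild type Col-0. They were chosen by measured values from 13513 probe sets that the array annotation ties to 1 gene. Signals were taken as x = log2(signal + 42.6), a scale on which dim genes change less. A gene became a member if its mean x was lower in tt4 than in Col-0 by 1 or more, if its mean in WOX1-2 lay between those means, and if its mean Col-0 signal was above 170. These 3 genotypes fixed the choice, so their values are given as a description without a test. The comparisons tested below are between the other 5 genotypes, with the spread estimated over all 24 arrays unless another set is named.

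The study hybridized total RNA of shoots (aerial parts, plants 3 weeks old) to Affymetrix ATH1 arrays, with 3 arrays for each of 8 genotypes. Per the labels, plants grew on agar medium with sucrose. The growth protocol also mentions drought, which no label ties to an array. Nothing states that a genotype's 3 arrays hold separately grown plants. The p-values therefore measure only array-to-array spread, which may be technical.

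Col-0 was the wild type. MYB12OX overexpresses MYB12 and pap1-D overexpresses MYB75/PAP1, both in the Col-0 background and homozygous. WOX1-1 and WOX1-2 are separate homozygous lines that combine MYB12OX and pap1-D by crossing. MYB12OX/tt4 and pap1-D/tt4 are homozygous crosses of each overexpressor with tt4, and tt4 itself is labelled a CHS mutant in the Col-0 background. The labels name neither the promoter behind MYB12OX nor the number of transformants that each line stands for.

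CHS makes the first intermediate of the flavonoid pathway, from which plants build flavonols and anthocyanins. MYB12 switches on genes of flavonol synthesis, PAP1 those of anthocyanin synthesis, and a plant without CHS makes neither product whichever regulator it carries. The members described below include genes of wall, protein-cutting and redox enzymes, methyltransferases, dehydrogenases, lipases and other enzymes, of transporters, chloroplast proteins, lipid transfer proteins and signalling proteins.

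The median signal of all probe sets lay between 163.9 and 176.7 on the 24 arrays, and 59.5% to 62.2% of the probe sets lay above 85.2. The leaf marker RCA, which encodes Rubisco activase, read 18031 to 27159 on the 24 arrays, and the root hair marker EXPA7 read 2.81 to 54.2. RCA was the only 1 of 5 leaf markers with a usable probe set, EXPA7 was 1 of 4 for root, and none of 3 flower and 3 seed markers had one. In RNA of whole aerial parts, fewer cells of a type and less RNA per cell cannot be told apart. pap1-D replicate 1 and WOX1-1 replicate 1 stood apart in some members: AT4G29780 read 4701, 265 and 294 on the pap1-D arrays in number order and 1686, 239.6 and 377 on those of WOX1-1. Counts of calls are therefore also given without these arrays.

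Among the members the mean Col-0 signal ran from 171 to 8356 with a median of 656, and the mean tt4 signal from 44.1 to 4106 with a median of 257. The difference of tt4 from Col-0 ran from -2.93 to -1.001 on the log2 scale with a median of -1.14. As a ratio of mean signals, Col-0 exceeded tt4 by 2.01 to 14.0 times, with a median of 2.51. CaS and ATSPS4F lay just inside the limit on the difference at -1.001 each, and AT4G24780 and AT3G23170 just outside it at -0.998 and -0.997. AT3G14200 and SWEET13 lay just inside the limit on the Col-0 signal at 171 each, and JAL23 and AT1G01250 outside it at 149 and 146. In all, 12 genes failed only that limit, and 9 failed only the condition on WOX1-2. The numeric rule took 106 genes, from which EXPA8, AT1G04770, GSTU20, CRR41, BCAT4, AT2G31790 and 3 plastid-encoded genes were left out by name. All 97 members passed the filter on low signals. Only 14 of them carry a symbol in the gene table, and 83 are known by their AT code.

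The members did not drop at 1 genotype but were spread over the whole series. The median member differed from Col-0 by -0.21 on the log2 scale in MYB12OX, which is 17.2% of its own fall to tt4. The median share of the fall was 32.4% in pap1-D, 48.5% in WOX1-1 and 69.1% in WOX1-2. It was 80.9% in MYB12OX/tt4 and 95.0% in pap1-D/tt4. The median of all tested probe sets stayed within 0.04 of Col-0 in every genotype. In all, 86 members had their highest mean in Col-0, 7 in MYB12OX and 4 in pap1-D. The lowest mean was in tt4 for 68, in pap1-D/tt4 for 25 and in MYB12OX/tt4 for 4. The rule set Col-0 high, tt4 low and WOX1-2 between them. These counts and the share in WOX1-2 are therefore partly fixed by the choice of members.

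**Figure D1:**
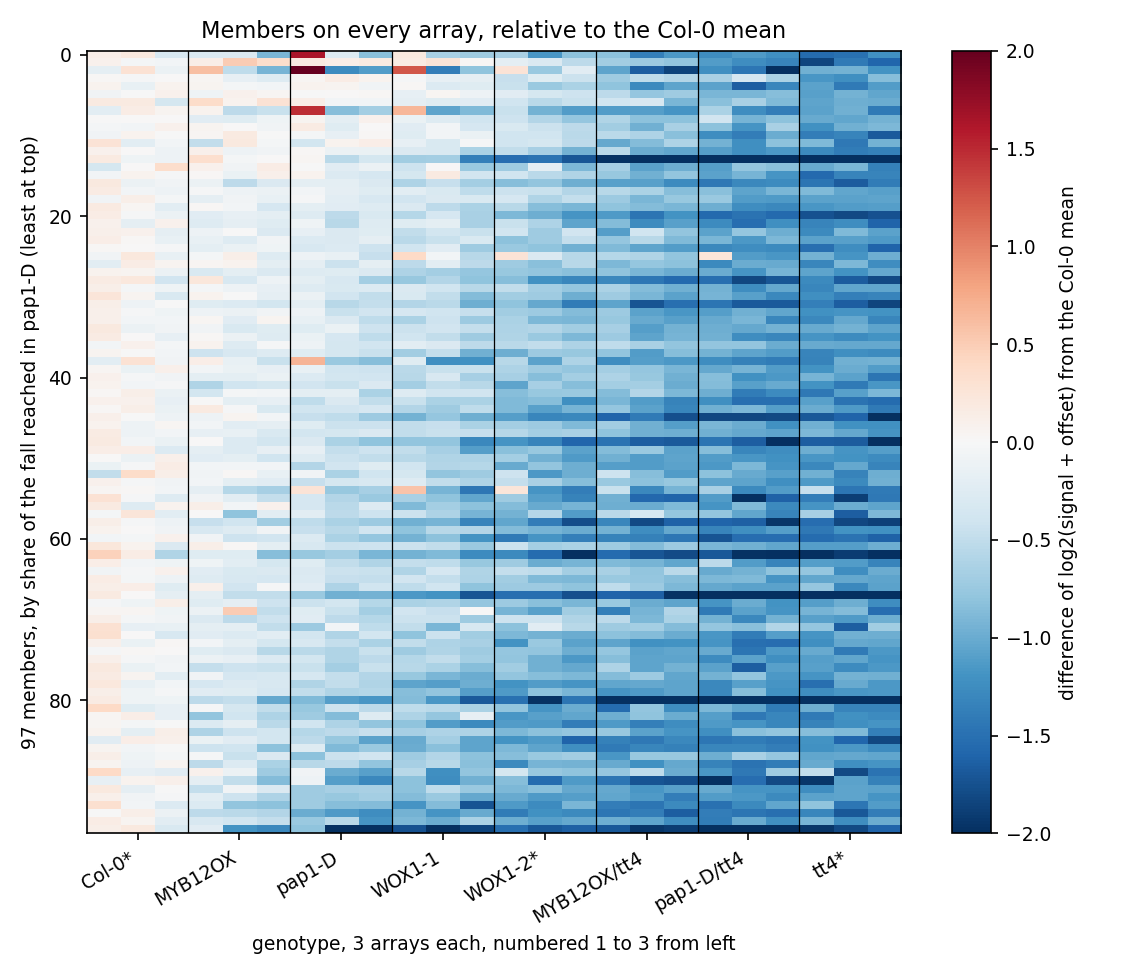
Each row is 1 of the 97 members, sorted from the smallest share of the fall in pap1-D at the top, and each column 1 of the 24 arrays, ordered by genotype and number; the colour is the difference of log2(signal + 42.6) from the mean of Col-0, and colours end at -2 and 2. An asterisk marks the genotypes that chose the members. Most rows darken gradually from left to right, a few near the bottom are already low in pap1-D, and 3 rows near the top are high on pap1-D replicate 1.

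The genotype means followed the sample listing. Averaged over the 97 members, the log2 level was 9.67 ± 0.08 (SD, n = 3) for Col-0, 9.45 ± 0.09 for MYB12OX, 9.27 ± 0.15 for pap1-D and 9.06 ± 0.12 for WOX1-1. WOX1-2 had 8.82 ± 0.09, MYB12OX/tt4 8.64 ± 0.09, pap1-D/tt4 8.46 ± 0.06 and tt4 8.41 ± 0.04. Array 1 had the highest and array 3 the lowest member mean in 8 of 8 genotypes, and 20 of the 23 steps from an array to the next in the listing went down. The choice of members required Col-0 to be high, tt4 to be low and WOX1-2 to lie between them, but not an order within a genotype. The labels do not explain the array number. Between genotypes, genotype and place in the listing cannot be told apart.

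**Figure D2:**
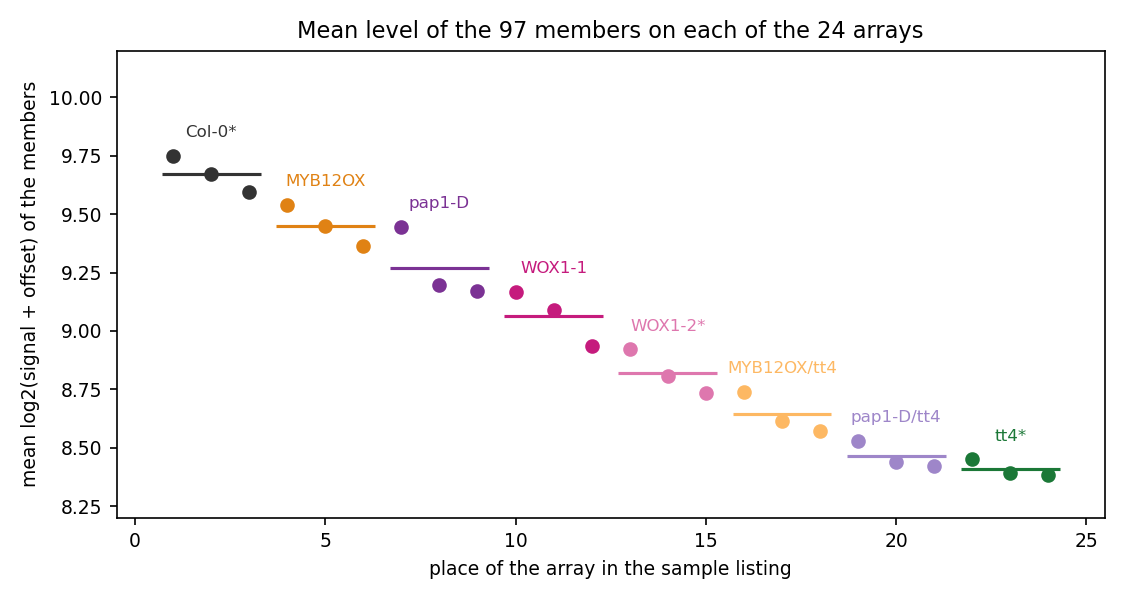
Points give the mean log2(signal + 42.6) of the 97 members on each of the 24 arrays, in the order of the sample listing, and bars give the mean of each genotype. An asterisk marks the genotypes that chose the members. Arrays numbered 1 lie above arrays numbered 3 in each genotype, and the genotype means run from 9.67 to 8.41.

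A fall at each of the 7 steps between neighbouring genotypes was seen in 37 members. Steps to or from Col-0, WOX1-2 and tt4 were partly set by the choice of members, so the counts of steps are a description. The largest single step was that from WOX1-1 to WOX1-2 in 26 members, both being lines of the same cross. It was the first step, from Col-0 to MYB12OX, in 17 members, and the last, from pap1-D/tt4 to tt4, in 3. Members also differed in how early they were low. At least 50% of the fall was already present in MYB12OX for 2 members, in pap1-D for 13, in WOX1-1 for 43 and in WOX1-2 for 83. Under 10% of it was present in pap1-D for 14 members.

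AT1G72920, which encodes a TIR domain protein of the kind found in immune receptors, was the earliest by its share of the fall in pap1-D. It read 559, 597 and 408 on the 3 arrays of Col-0, 434, 201 and 186 in MYB12OX and 275, 97.2 and 89 in pap1-D. In the other 5 genotypes it read between 71.7 and 154, so pap1-D had 91.6% of the fall and its arrays numbered 2 and 3 already lay below all 3 arrays of tt4. GT72B1, which encodes a glucosyltransferase, had reached 78.5% of its fall in pap1-D, AT5G01790 77.1%, AT4G24700 72.3% and AT4G34630 65%. AT5G01790 read 347, 384 and 318 in Col-0, 228, 227 and 219 in MYB12OX and 153, 135 and 124 in pap1-D, with no overlap between these genotypes.

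AT5G48490, which encodes a small lipid transfer protein related to DIR1 of systemic acquired resistance, was among the latest. Its arrays read 3639, 3307 and 3301 for Col-0 and 3758, 4868 and 4364 for MYB12OX. Those of pap1-D read 3862, 3762 and 3881 and those of WOX1-1 3843, 4071 and 3465, all above the lowest Col-0 array. WOX1-2 read 2965, 2791 and 2356, MYB12OX/tt4 2096, 2051 and 1956, pap1-D/tt4 1551, 1418 and 1344 and tt4 924, 1251 and 1109.5. From WOX1-1 on, no array of a genotype reached the lowest array of the genotype before it. AT2G34620, which encodes an mTERF protein of the family that acts on organelle genes, showed the same late course, with 1619.5, 1791 and 1690.0 in Col-0 and 1424, 1635 and 1539.5 in WOX1-1. It then read 1154, 1098 and 928 in MYB12OX/tt4 and 693, 623 and 836 in pap1-D/tt4. The other 12 members with under 10% of their fall in pap1-D were AT2G35260, AT5G43150, AT4G04750, MSRB6, AT3G56290, AT1G13650, AT5G57345, AT4G25780, AT4G02850, AT4G24380, ORA47 and AT4G29780. For the last 3 the small share rests on pap1-D replicate 1 and does not show a late course. AT4G24380 read 1790, 322 and 370 in pap1-D against 528, 685 and 641 in Col-0. ORA47 read 1525, 381 and 241 against 510, 539 and 364. AT4G29780 read 4701, 265 and 294 against 605, 856 and 637, and 335, 340 and 277 in tt4.

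**Figure D3:**
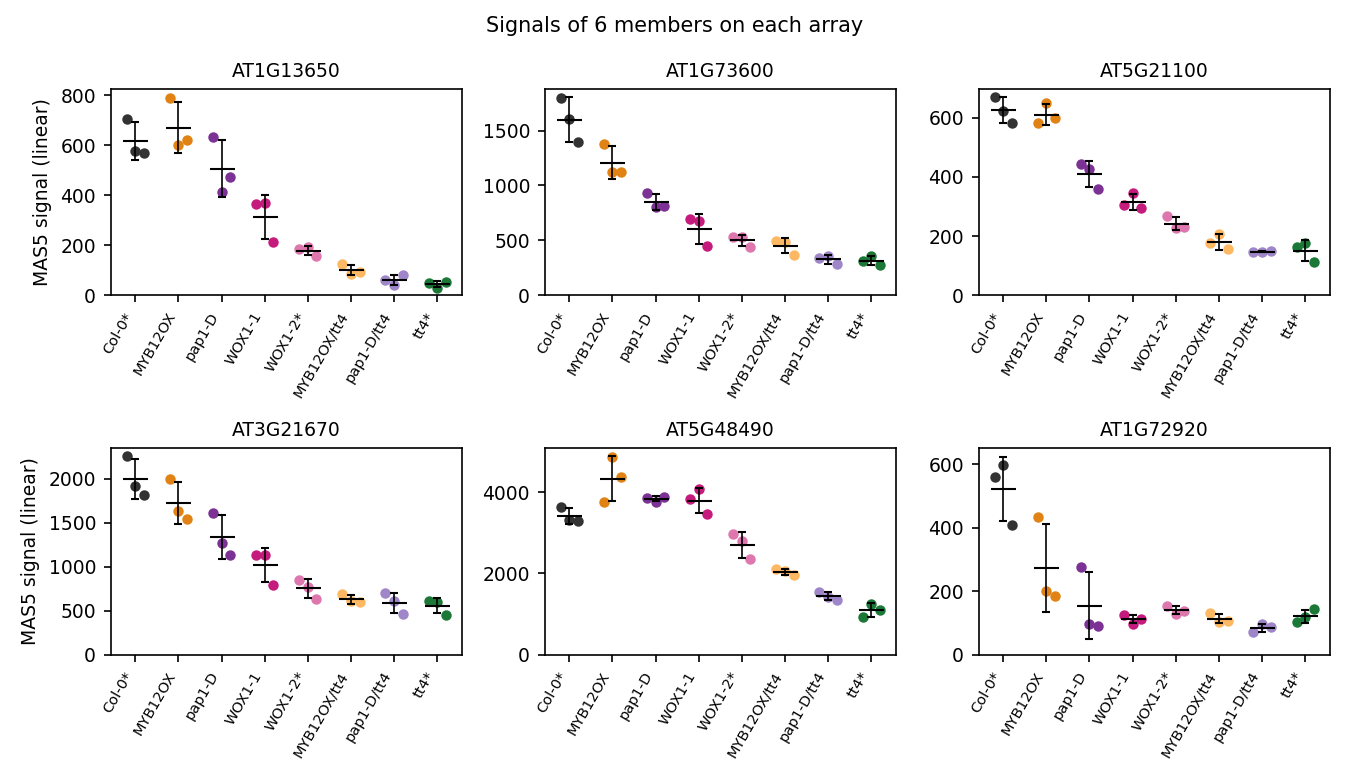
MAS5 signals of 6 members on each array (points), with the mean (long bar) and SD (short bars, n = 3) of each of the 8 genotypes; the vertical axes are linear and start at 0. An asterisk marks the genotypes that chose the members. AT1G72920 is low from pap1-D on, whereas AT5G48490 stays at 3301 or above up to WOX1-1 and AT5G21100 steps down between MYB12OX and pap1-D.

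Loss of CHS under an overexpressed regulator was tested between MYB12OX/tt4 and MYB12OX and between pap1-D/tt4 and pap1-D, pairs that share no array and hold none that chose the members. Under MYB12OX, 86 of the 97 members were lower without CHS at an adjusted p under 0.05, against 8.23% of all 14935 tested probe sets. Under pap1-D, 87 members were lower, against 8.84% of the tested probe sets. No member was higher in either pair, where 9.2% and 10.1% of the tested probe sets were. The median member differed by -0.76 in the first pair and -0.75 in the second, and the median of all tested probe sets by 0.02 and 0.04. All 97 members were lower in both pairs, over ranges of -2.30 to -0.21 and -2.40 to -0.25. Both tests called 82 members, where 5.54% of the tested probe sets passed both, and 6 members passed neither. The spread was estimated over all 24 arrays, and on the 15 arrays that did not choose the members the counts were 85 and 87. Without pap1-D replicate 1 and WOX1-1 replicate 1 they were 89 and 80. With the replicate number as a block, 89 members were lower under pap1-D. Of the members called, 9 under MYB12OX and 10 under pap1-D missed the threshold when some single array was left out. On all 9 arrays of MYB12OX, pap1-D and WOX1-1, 55 members read higher than on all 6 of MYB12OX/tt4 and pap1-D/tt4, against 3.33% of the tested probe sets.

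**Figure D4:**
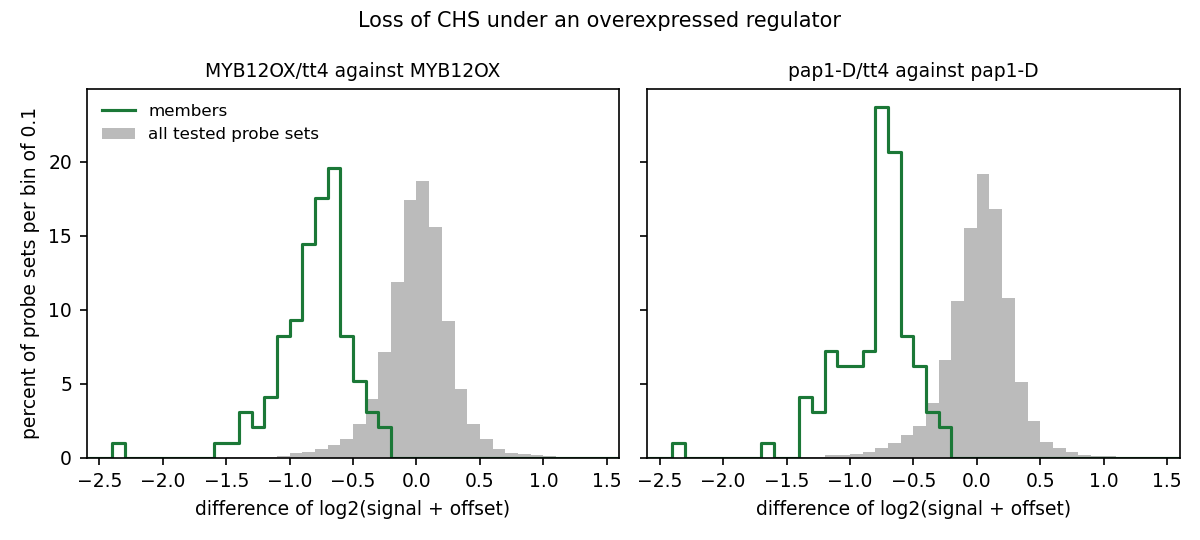
Distribution of the log2 difference without CHS minus with CHS for the 97 members (line) and all 14935 tested probe sets (grey), under MYB12OX (left) and pap1-D (right), as percent per bin of 0.1. The members lie to the left, with medians of -0.76 and -0.75, and the grey distributions centre near 0, with medians of 0.02 and 0.04.

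These pairs are also 12 places apart in the sample listing. With the place of the array added to the model, the trend is estimated only within genotypes, and 0 members were called lower in either pair. The median member then differed by 0.08 and 0.09, with a median SE of 0.43, and 51 and 54 members had positive values. In that model 3 members were called higher under pap1-D, which were AT3G21670, AT1G44000 and AT1G78070. It called 45 of the 14935 tested probe sets under MYB12OX and 136 under pap1-D, in either direction. These 3 members were also called lower on arrays numbered 3 than on arrays numbered 1, in the test by array number given below. In the model without the place the SEs of the members ran from 0.07 to 0.71, and with it from 0.23 to 2.20. The largest SE was that of AT4G29780 in both models. The differences are thus less precise with the place, and a lost call there does not show a difference of 0. Whether the falls belong to CHS or to the listing cannot be told apart.

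**Figure D5:**
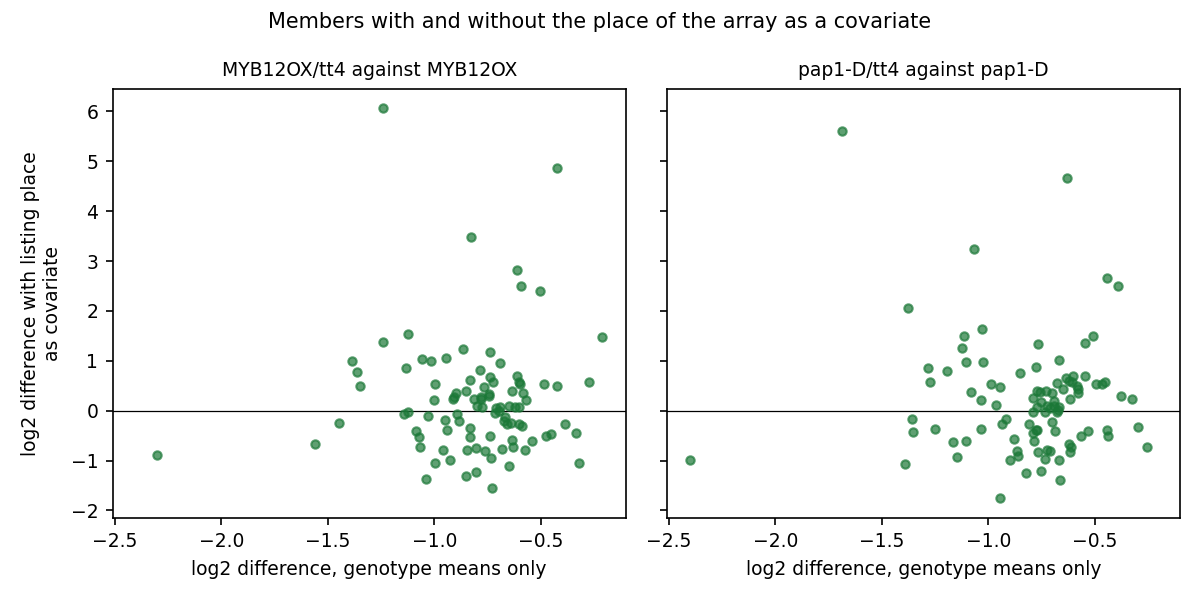
Each point is 1 of the 97 members, with its log2 difference without CHS minus with CHS from genotype means only (horizontal) against the same difference with the place of the array as a covariate (vertical), under MYB12OX (left) and pap1-D (right). All points lie left of 0 on the horizontal axis, and they scatter around 0 on the vertical one.

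AT1G13650, whose function is not well established, fell furthest. It read 787, 599.8 and 621 in MYB12OX and 632, 411 and 474 in pap1-D, but 125, 86.9 and 93.1 in MYB12OX/tt4 and 60.1, 42.9 and 80.1 in pap1-D/tt4. The groups did not overlap in either pair, and the mean signal was 6.59 and 8.29 times higher with CHS. The log2 differences were -2.30 ± 0.18 (SE) under MYB12OX (limma, adjusted p = 2.07e-08) and -2.40 ± 0.18 under pap1-D (adjusted p = 2.47e-08). For AT1G13650, Col-0 read 704, 578 and 569, WOX1-1 363, 368 and 213, WOX1-2 185, 192 and 158 and tt4 50.8, 30.3 and 51.3, with WOX1-1 wholly below Col-0 and WOX1-2 wholly above tt4. Col-0, WOX1-2 and tt4 chose the members. Such separations from Col-0 and tt4, here and for the genes below, are thus partly fixed by the choice and lend no further support.

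Among the enzymes of the cell wall, 5 of 5 members fell in both pairs. Of all 97 members, 86 and 87 did (88.7% and 89.7%). The group counts here and below lie near that share and are no result about a function. Pectin is the gel-like polymer of the wall, and pectate lyases, polygalacturonases and acetylesterases cut or trim it. AT1G60590, of the pectin lyase-like family, read 276, 278 and 167 in MYB12OX and 86.8, 72.3 and 66.2 in MYB12OX/tt4. Under pap1-D it read 182, 194 and 157 with CHS and 74.2, 52.9 and 50.9 without. Neither pair overlapped, and the differences were -1.24 ± 0.22 and -1.12 ± 0.22 (adjusted p = 0.000414 and 0.00108). For AT1G60590, Col-0 read 476, 377 and 205, WOX1-1 154, 161 and 116, WOX1-2 113, 87.5 and 50.8 and tt4 38.8, 58.7 and 36.5, with WOX1-1 wholly below Col-0 and WOX1-2 overlapping tt4. The pectate lyase gene AT5G63180 read 1467, 1577 and 1480.1 and 1025, 943 and 896 under MYB12OX and 1512, 1533 and 1484 and 893, 778 and 937 under pap1-D. No arrays overlapped within a pair, and the differences were -0.64 ± 0.07 and -0.77 ± 0.07. AT1G57590, a pectin acetylesterase gene, differed by -1.04 and -0.67, the pectate lyase gene AT1G67750 by -0.63 and -0.71, and AT1G10640 by -0.90 and -0.55. The last value missed the threshold without any 1 of 4 arrays, and was -0.40 without pap1-D/tt4 replicate 3 (adjusted p = 0.200).

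All 5 genes of protein-cutting enzymes fell in both pairs as well. Subtilases are secreted serine proteases, many of which act in the wall. The subtilase gene AT5G59130 read 359, 375 and 296 in MYB12OX and 181, 114 and 137 in MYB12OX/tt4, and 345, 312 and 289 in pap1-D against 139, 134 and 100.5 in pap1-D/tt4. The arrays of each pair were apart, with differences of -1.06 ± 0.16 and -1.10 ± 0.16 (adjusted p = 8e-05 and 5.45e-05). For AT5G59130, Col-0 read 555, 502 and 470.5, WOX1-1 241, 247 and 179, WOX1-2 226, 168 and 118 and tt4 148, 114 and 109, with WOX1-1 wholly below Col-0 and WOX1-2 overlapping tt4. The other subtilase genes were AT5G45650, at -0.996 and -0.99, and AT5G44530, at -1.0 and -0.62. BETA-VPE, which encodes a vacuolar processing enzyme, differed by -0.67 and -0.81, and scpl20, a serine carboxypeptidase-like gene, by -0.60 and -0.73.

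Of the 7 transporter genes, 6 fell under MYB12OX and 7 under pap1-D. AT3G21670 encodes a member of the NPF family of nitrate and peptide transporters. It read 1997, 1632 and 1542 in MYB12OX and 691, 608 and 593 in MYB12OX/tt4. Under pap1-D it read 1617, 1266 and 1128 with CHS and 696, 607 and 467 without. The pairs did not overlap, at -1.39 ± 0.16 and -1.13 ± 0.16 (adjusted p = 2.99e-06 and 3.69e-05). For AT3G21670, Col-0 read 2259, 1921 and 1822, WOX1-1 1132, 1135 and 791, WOX1-2 852, 769 and 637 and tt4 605, 602 and 456, with WOX1-1 wholly below Col-0 and WOX1-2 wholly above tt4. With the listing place in the model the sign turned, to 1.00 and 1.26, and the second value passed in that direction (adjusted p = 0.0453). The putative amino acid transporter gene AT5G02180 differed by -1.09 and -1.04, and the sugar transporter-like genes AT1G19450 and AT4G04750 by -0.74 and -0.55 and by -0.47 and -0.62. That of AT1G19450 under pap1-D missed the threshold without pap1-D replicate 1 (-0.44, adjusted p = 0.0704) and without pap1-D/tt4 replicate 2 or 3. SWEET13, which encodes a sucrose exporter, was among the dimmest members. It read 106, 134 and 94.7 in MYB12OX, 63.7, 49.6 and 62.4 in MYB12OX/tt4, 103, 107 and 81.5 in pap1-D and 41.9, 33.9 and 38.5 in pap1-D/tt4. AT1G73700, of the MATE family of efflux carriers, was the exception, at -0.32 ± 0.16 under MYB12OX (adjusted p = 0.194).

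The 6 genes of chloroplast proteins fell in both pairs. CaS encodes a calcium-sensing protein of the thylakoid membrane and was the second brightest member. It read 5199.7, 4915 and 4878 in MYB12OX and 3571, 3398 and 2907 in MYB12OX/tt4, and 5062, 4641 and 4473 in pap1-D against 2952, 2526 and 2784 in pap1-D/tt4. These arrays were well apart, and the differences were -0.60 ± 0.09 and -0.77 ± 0.09 (adjusted p = 7.05e-05 and 4.24e-06). For CaS, Col-0 read 5933, 5084 and 4899, WOX1-1 4579, 4284 and 3703, WOX1-2 3909, 3877 and 3511 and tt4 2834, 2559 and 2479, with WOX1-1 wholly below Col-0 and WOX1-2 wholly above tt4. AT5G61670, related to ORANGE, a protein of carotenoid accumulation, differed by -0.77 and -0.77. AT1G44000, related to the STAY-GREEN proteins of chlorophyll breakdown, differed by -0.86 and -0.77. AOR, which encodes an oxidoreductase that removes reactive carbonyls, differed by -0.71 and -0.79, and the mTERF gene AT2G34620 by -0.74 and -1.15. The rhodanese-like gene AT4G27700 read 3351, 2995 and 3057 in MYB12OX and 2132, 1776 and 1607 in MYB12OX/tt4, and 2949, 2568 and 2585 in pap1-D against 1831, 1728 and 1473 in pap1-D/tt4. Its pairs were apart, at -0.76 ± 0.10 and -0.68 ± 0.10. For AT4G27700, Col-0 read 3646, 3246 and 3562, WOX1-1 2474, 2522 and 2230.1, WOX1-2 2148, 2079 and 1865 and tt4 1769, 1472 and 1483, with WOX1-1 wholly below Col-0 and WOX1-2 wholly above tt4.

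Ascorbate is the main soluble antioxidant of leaves, and genes on its synthesis and its oxidation were both members. AT5G21100 encodes an ascorbate oxidase, a secreted copper enzyme. It read 581, 649.8 and 599 in MYB12OX and 176, 208 and 155 in MYB12OX/tt4, and 442, 426 and 360.1 in pap1-D against 146, 146 and 149 in pap1-D/tt4. The lowest array with CHS was above the highest without, also for WOX1-1, and the differences were -1.56 ± 0.11 and -1.25 ± 0.11 (adjusted p = 8.58e-09 and 1.78e-07). For AT5G21100, Col-0 read 669, 623 and 582, WOX1-1 305, 347 and 296, WOX1-2 269, 227 and 231 and tt4 163, 178 and 112, with WOX1-1 wholly below Col-0 and WOX1-2 wholly above tt4. VTC4 encodes the L-galactose-1-phosphate phosphatase of ascorbate synthesis. It read 1084, 1016 and 832 in MYB12OX, 592, 562 and 542 in MYB12OX/tt4, 922, 902 and 879 in pap1-D and 517, 425 and 407 in pap1-D/tt4. Neither pair overlapped, and the differences were -0.74 ± 0.11 and -0.94 ± 0.11 (adjusted p = 8.63e-05 and 5.85e-06). MSRB6, a methionine sulfoxide reductase gene, differed by -0.57 and -0.69.

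AT1G73600 encodes a phosphoethanolamine N-methyltransferase, an enzyme of phosphatidylcholine and phosphocholine synthesis. It read 1380.0, 1119.9 and 1123 in MYB12OX and 496, 483 and 370.5 in MYB12OX/tt4. Under pap1-D it read 935, 801 and 809 with CHS and 338, 355 and 285 without. Each pair was apart, although WOX1-1 replicate 3 lay within the MYB12OX/tt4 range, and the differences were -1.35 ± 0.14 and -1.28 ± 0.14 (adjusted p = 1.3e-06 and 2.37e-06). For AT1G73600, Col-0 read 1799, 1606 and 1396, WOX1-1 696, 673 and 449, WOX1-2 529, 532 and 441 and tt4 316, 359 and 273, with WOX1-1 wholly below Col-0 and WOX1-2 wholly above tt4. The predicted methyltransferase gene AT3G56080 read 443, 288 and 344 and 127, 109.5 and 98.4 under MYB12OX, and 319.6, 289 and 217 and 103, 74.2 and 83.8 under pap1-D. Its pairs did not overlap either, at -1.36 ± 0.18 and -1.28 ± 0.18. For AT3G56080, Col-0 read 421, 435 and 275, WOX1-1 203, 232 and 193, WOX1-2 185, 135 and 124 and tt4 128, 88 and 75.3, with WOX1-1 wholly below Col-0 and WOX1-2 overlapping tt4. AT1G69523, of the same broad enzyme class, differed by -0.42 and -0.75, the first of which missed the threshold without any 1 of 5 of the 6 arrays of its pair, at -0.44 to -0.33.

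Other enzymes of small molecules behaved alike, except GT72B1 under pap1-D. AT5G02230, a haloacid dehalogenase-like hydrolase gene, read 510.1, 528 and 349.9 in MYB12OX and 129, 138 and 155 in MYB12OX/tt4, and 388, 328 and 313 in pap1-D against 99.9, 108 and 114 in pap1-D/tt4. The pairs were apart, at -1.45 ± 0.17 and -1.36 ± 0.17 (adjusted p = 3.2e-06 and 7.43e-06). For AT5G02230, Col-0 read 852, 711 and 706, WOX1-1 395, 314 and 206, WOX1-2 239, 159 and 247 and tt4 133, 122 and 118, with WOX1-1 wholly below Col-0 and WOX1-2 wholly above tt4. AT3G57020 encodes a strictosidine synthase-like protein, named for its resemblance to an alkaloid enzyme of other plants. It read 598, 583 and 546 in MYB12OX, 321, 187 and 225 in MYB12OX/tt4, 623, 471 and 501 in pap1-D and 233, 193 and 195 in pap1-D/tt4, at -1.13 ± 0.16 and -1.20 ± 0.16. These pairs did not overlap. For AT3G57020, Col-0 read 783, 662 and 709, WOX1-1 464, 482 and 343, WOX1-2 393, 330.2 and 246 and tt4 252, 200.1 and 170.4, with WOX1-1 wholly below Col-0 and WOX1-2 overlapping tt4. BGLU44, a β-glucosidase gene and the brightest member, read 8751, 6961 and 8231 in MYB12OX and 5832, 5294 and 4802 in MYB12OX/tt4. Under pap1-D it read 7786, 6555 and 6388 with CHS and 4822, 4803 and 4186 without. The arrays were apart in both pairs, with -0.58 ± 0.09 and -0.58 ± 0.09 (adjusted p = 0.000155 and 0.00019). For BGLU44, Col-0 read 8039, 8883 and 8145, WOX1-1 7221, 6811 and 5802, WOX1-2 5718, 5922 and 5452 and tt4 4151, 4084 and 4082, with WOX1-1 wholly below Col-0 and WOX1-2 wholly above tt4. ATSPS4F, a sucrose-phosphate synthase gene, differed by -0.69 and -0.71. The glucosyltransferase gene GT72B1 differed by -0.69 and -0.38, and the second value did not pass (adjusted p = 0.0592).

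Tropinone reductase-like genes encode short-chain dehydrogenases, and 3 that lie close together on chromosome 2 were members. AT2G29290 and AT2G29300 are direct neighbours, and AT2G29320 lies 2 genes further on. AT2G29290 read 4044, 3851 and 3883 in MYB12OX and 3025, 2729 and 3237 in MYB12OX/tt4. Under pap1-D it read 3895, 3493 and 3486 with CHS and 2332, 2450.4 and 2703 without. The pairs did not overlap, and the differences of -0.39 ± 0.10 and -0.53 ± 0.10 (adjusted p = 0.00771 and 0.000552) were at the small end of the members. For AT2G29290, Col-0 read 4541, 4684 and 5025, WOX1-1 3103, 3759 and 3119, WOX1-2 3393, 3317 and 2958 and tt4 2748, 1989.7 and 2353, with WOX1-1 wholly below Col-0 and WOX1-2 wholly above tt4. Without MYB12OX/tt4 replicate 2 the first did not pass (-0.32, adjusted p = 0.0529). AT2G29300 differed by -0.96 and -0.79 and AT2G29320 by -0.63 and -0.49. Such near copies may share probe signal. The only other neighbouring members were AT4G33660 and AT4G33666.

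Among signalling proteins, all 7 TIR domain, receptor kinase and leucine-rich repeat genes fell under MYB12OX and 6 of 7 under pap1-D. The exception was AT1G72920, whose pap1-D/tt4 arrays read 71.7, 96.4 and 85.3 and overlapped pap1-D (-0.51 ± 0.26, adjusted p = 0.182). Under MYB12OX it differed by -0.95 ± 0.26 (adjusted p = 0.0134), but by -0.61 without MYB12OX replicate 1 (adjusted p = 0.121), and it missed the threshold without MYB12OX/tt4 replicate 2 or 3. The remaining genotypes read 124, 97.6 and 113 (WOX1-1), 154, 129 and 137 (WOX1-2), 129.6, 102 and 106 (MYB12OX/tt4) and 103, 117 and 142 (tt4), so WOX1-2 lay above WOX1-1 and tt4 overlapped both. The value under pap1-D was -0.10 without pap1-D replicate 1. The TIR gene AT1G66090 read 662, 221 and 201 in pap1-D and differed by -1.01 and -1.03. The first pap1-D array was far above the other two, and the second difference was -0.53 without it (adjusted p = 0.146, or 0.0438 when WOX1-1 replicate 1 was left out too). That call was also lost without pap1-D/tt4 replicate 3. The first call was lost without MYB12OX replicate 1 (-0.87, adjusted p = 0.0939) or MYB12OX/tt4 replicate 3. The kinase gene AT1G54820 differed by -0.88 and -0.94, and the lectin receptor kinase gene AT1G11410 by -0.59 and -0.69. AT4G12980, of a cytochrome b561 family with auxin-responsive members, read 1721, 1792 and 1757 and 899, 703 and 853 under MYB12OX. It read 1673, 1384 and 1624 in pap1-D and 654, 699.5 and 655 in pap1-D/tt4, with no overlap, at -1.07 ± 0.10 and -1.17 ± 0.10. For AT4G12980, Col-0 read 2239, 1974 and 1845, WOX1-1 1345, 1583 and 1269.7, WOX1-2 1061, 1003 and 861 and tt4 572, 545 and 571, with WOX1-1 wholly below Col-0 and WOX1-2 wholly above tt4.

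The lipid transfer gene AT5G48490, whose arrays are given above, fell in both pairs (-1.07 ± 0.10 and -1.39 ± 0.10, adjusted p = 4.44e-07 and 2.27e-08). The GDSL lipase genes AT4G26790 and AT5G45950 differed by -0.93 and -0.77 and by -0.69 and -0.78. For AT4G26790 the first value missed the threshold without MYB12OX replicate 2 (-0.65, adjusted p = 0.0537), and the second without pap1-D replicate 1 (-0.66, adjusted p = 0.0945) or pap1-D/tt4 replicate 1. Of the bright members that were given no function group here, AT2G35260 read 4236, 4827 and 4626 in MYB12OX and 3148, 2616 and 2749 in MYB12OX/tt4. It read 4474, 4570.4 and 4617 in pap1-D against 2393, 2376 and 2496 in pap1-D/tt4. It was nearly level up to WOX1-1 and clearly apart in both pairs, at -0.68 ± 0.07 and -0.90 ± 0.07. For AT2G35260, Col-0 read 4302, 4484 and 4792, WOX1-1 4047, 4637 and 4189, WOX1-2 3846, 3533 and 3375 and tt4 2099, 2335 and 2188, with WOX1-1 overlapping Col-0 and WOX1-2 wholly above tt4. AT5G57345 read 4082, 3518 and 3597 in MYB12OX and 2588, 1884 and 1820.4 in MYB12OX/tt4, and 3867, 3513 and 3466 in pap1-D against 1754, 1607 and 1694 in pap1-D/tt4. Its pairs were apart as well, at -0.83 ± 0.12 and -1.08 ± 0.12. For AT5G57345, Col-0 read 4049, 3809.8 and 3553, WOX1-1 3089, 3078 and 2424, WOX1-2 2697, 2388 and 1955 and tt4 1543, 1409 and 1464, with WOX1-1 wholly below Col-0 and WOX1-2 wholly above tt4.

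Of the 4 genes of regulators, 3 fell under MYB12OX and 4 under pap1-D. The ubiquitin ligase gene PUB26 differed by -0.80 and -0.83, and the RING finger gene AT5G47610 by -0.73 and -0.62. AT4G27280, an EF-hand calcium-binding protein gene, read 3494, 2778 and 2155 in MYB12OX, 1398, 1162 and 1136 in MYB12OX/tt4, 3671, 1807 and 1596 in pap1-D and 910.3, 1338 and 1104 in pap1-D/tt4. Its differences were -1.14 ± 0.25 and -0.97 ± 0.25 (adjusted p = 0.00282 and 0.00905), and the second was -0.60 without pap1-D replicate 1 (adjusted p = 0.0845). For AT4G27280, Col-0 read 3515, 4129 and 4228, WOX1-1 2216, 1651 and 2012, WOX1-2 2156, 1335 and 1784 and tt4 995, 1856 and 1525, with WOX1-1 wholly below Col-0 and WOX1-2 overlapping tt4. ORA47, a jasmonate-inducible AP2/ERF factor gene, read 1525, 381 and 241 in pap1-D and 172, 189 and 174 in pap1-D/tt4. The first pap1-D array was far above the others of its line, and the difference of -1.38 ± 0.38 (adjusted p = 0.0135) became -0.65 without it (adjusted p = 0.0959, or 0.0428 when WOX1-1 replicate 1 was left out too).

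Function groups were given to 51 members, and 46 had none. Of these 46, 37 fell under MYB12OX and 38 under pap1-D, with medians of -0.77 and -0.71. They include the alcohol dehydrogenase-like gene AT5G42250, at -0.83 and -0.88, the thaumatin-like gene AT1G20030, at -0.85 and -1.03, and AOP1, at -0.58 and -0.74. The members called in neither pair were AT1G78070, AT2G17300, AT3G14200, AT3G28220, AT4G24380 and AT4G29780. Several varied widely between arrays of a genotype. AT4G29780 read 1076, 475 and 343 in MYB12OX and 310.1, 192 and 161 in MYB12OX/tt4, and differed by -1.24 ± 0.71 and -1.69 ± 0.71 (adjusted p = 0.253 and 0.103). Without MYB12OX replicate 1 the first was -0.80, and without pap1-D replicate 1 the second was -0.40. AT4G24380, a predicted hydrolase gene, read 1790.0, 322 and 370.0 in pap1-D and 994, 273 and 315 in WOX1-1, so array 1 was far above arrays 2 and 3 in both lines. Its differences were -0.83 ± 0.43 and -1.07 ± 0.43 (adjusted p = 0.206 and 0.0898), the second being -0.32 without pap1-D replicate 1. AT1G78070 differed by -0.42 and -0.63, and AT3G28220 by -0.59 and -0.44. Without pap1-D replicate 1 the second value of AT1G78070 was -0.30, and without pap1-D/tt4 replicate 1 that of AT3G28220 was -0.90 and passed the threshold (adjusted p = 0.00616).

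Whether the loss of CHS acted differently under the 2 regulators was tested as an interaction. No member passed (0 of 97), where 0.0067% of the tested probe sets were lower and none higher. At an unadjusted p under 0.05 there were 10 members, 4 more negative under pap1-D and 6 less so. Of the 14935 tested probe sets, 819 passed that limit in either direction. The smallest adjusted p of a member was 0.568. The median interaction of the members was -0.02.

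The genotypes with CHS intact were then compared with each other. In WOX1-1, 33 members were lower than in MYB12OX, against 2.19% of the tested probe sets, and none was higher, against 2.09%. The median member differed by -0.38, and 94 of 97 had a negative difference. AT1G13650 differed by -1.02 ± 0.18 (adjusted p = 0.0018), AT1G73600 by -0.96 ± 0.14 and AT5G21100 by -0.87 ± 0.11. The haloacid dehalogenase-like gene AT2G41250 differed by -0.84 and the RING finger gene AT5G47610 by -0.74. This comparison shares the MYB12OX arrays with the first CHS pair. The count was 12 without MYB12OX replicate 1 and 13 without WOX1-1 replicate 3, and 35 without both arrays that stood apart. With the listing place in the model 0 members were called lower, the median member differed by 0.03, and 53 of 97 values were positive. That model called 90 of the 14935 tested probe sets in either direction.

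Neighbouring genotypes differed in few members. In WOX1-1 against pap1-D, 1 member was lower, the pectate lyase gene AT5G63180 (-0.42 ± 0.07, adjusted p = 0.0251), against 0.0335% of the tested probe sets. The count was 2 with the replicate number as a block and 0 without the arrays that stood apart, and AT5G63180 missed the threshold without any 1 of the pap1-D arrays and without WOX1-1 replicate 2 or 3. In pap1-D against MYB12OX, 1 member was lower, AT5G01790 (-0.58 ± 0.11, adjusted p = 0.0214), against 0.0402% of the tested probe sets. Here the block gave 4 and leaving out the arrays that stood apart gave 2. AT5G01790 missed the threshold without any 1 of the MYB12OX arrays or without pap1-D replicate 2 or 3. In pap1-D/tt4 against MYB12OX/tt4, 2 members were lower, against 0.0737% of the tested probe sets: AT2G34620 (-0.54 ± 0.10, adjusted p = 0.0186) and AT5G48490 (-0.49 ± 0.10, adjusted p = 0.0418). Both of these calls were lost without MYB12OX/tt4 replicate 1 or 2 or pap1-D/tt4 replicate 2, that of AT2G34620 also without pap1-D/tt4 replicate 1, and that of AT5G48490 without any of 14 single arrays in all. No member was higher in these comparisons, where 0.0134%, 0.161% and 0.127% of the tested probe sets were. The medians of all members were -0.18, -0.18 and -0.20 in these 3 comparisons, and 92, 86 and 82 of 97 had a negative difference. With the listing place in the model 0 members were called in each, with medians of 0.04, 0.01 and 0.03. That model called 2, 30 and 34 of the 14935 tested probe sets in either direction.

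The array number was tested on the 15 arrays of the 5 genotypes that did not choose the members, with genotype in the model. Arrays numbered 3 were lower than arrays numbered 1 for 7 members, against 0.643% of the tested probe sets, and higher for 0, against 0.442%. At an unadjusted p under 0.05, 41 members were lower and 1 higher. Of the 14935 tested probe sets, 2234 passed that limit in either direction. The median member differed by -0.15, and 79 of 97 were negative. The 7 were AT1G44000, AT3G21670, AT1G18360, AT1G19450, AT1G78070, AT3G01060 and AT4G29780. AT1G44000 read 2263, 2121 and 1889.9 in MYB12OX, 1979, 1629 and 1514 in pap1-D and 1720.3, 1514 and 1162 in WOX1-1. It read 1289.6, 1113 and 998 in MYB12OX/tt4 and 1109, 989 and 856 in pap1-D/tt4, so array 1 was the highest and array 3 the lowest in each. Its difference was -0.38 ± 0.05 (adjusted p = 0.00759), and that of AT3G21670 was -0.42 ± 0.07 (adjusted p = 0.0137). For 35 members array 1 lay above array 3 in all 5 genotypes, against 5.73% of the tested probe sets. The count of 7 fell to 0 without pap1-D replicate 1 and WOX1-1 replicate 1. Leaving out 1 array gave 1 without pap1-D replicate 3 or WOX1-1 replicate 3 and 2 without pap1-D replicate 1, WOX1-1 replicate 1 or pap1-D/tt4 replicate 3. It gave 3 without MYB12OX replicate 3 and 4 without MYB12OX/tt4 replicate 2 or 3.

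Relatives of the members were mixed. Of the phosphoethanolamine N-methyltransferase genes, 2 were tested and both fell in both CHS pairs, but PMEAMT, the gene that is no member, by only -0.33 and -0.35 against -1.35 and -1.28 for AT1G73600. Of 3 ascorbate oxidase genes, AT5G21100 fell, AT4G39830 rose under MYB12OX by 1.04 (adjusted p = 0.00572) and differed by 0.20 under pap1-D, and AT5G21105 differed by 0.07 and 0.18. Of 13 cytochrome P450 genes, 3 fell and 2 rose in each pair, and CYP78A9, the only member, was called under pap1-D (-0.61) but not under MYB12OX (-0.33, adjusted p = 0.0555). Of 7 genes that matched xyloglucan, another wall polymer, by name, 1 fell, XTH32 at -0.49 and -0.67. Of 12 expansin genes, whose products loosen walls, 3 fell in each pair, and 2 rose under MYB12OX and 1 under pap1-D. Of 5 glycosyl hydrolase genes of family GH9, 2 fell in each pair. None of 4 peroxidase genes passed, at an adjusted p of 0.056 or more. Of 4 subtilase genes found by name only SBT1.3 was tested, and it differed by -0.16 and -0.23.

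Light and clock genes were looked at beside the members. The BIC genes AT3G52740 and AT3G44450, whose products inhibit the blue light receptors called cryptochromes, both fell, with differences of -0.98 and -0.55 and of -0.75 and -0.63. AT3G44450 had failed the member rule only in WOX1-2. Of the evening clock genes 3 were tested: COR27 rose by 1.79 and 1.37 and AT4G33980 by 1.10 and 0.57, while GI differed by 0.00 and -0.07. No gene of the morning clock list was tested. Their part in the members' course was not tested. By chromosome, 32 members lay on chromosome 1, 8 on 2, 13 on 3, 20 on 4 and 24 on 5, or 33.0%, 8.25%, 13.4%, 20.6% and 24.7%, where the tested genes had 26.2%, 14.3%, 20.2%, 14.5% and 23.5%.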

How the data were processed

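The deposited values are linear MAS5 signal intensities, 1 per probe set and array, per the submitters' processing notes; its version is not stated. Every array had a mean of 500.0 once 2% of the probe sets were trimmed from each tail, and such scaling masks any change shared by most genes. The table holds 22810 probe sets, 64 of them controls, and no detection calls. An offset of 42.6 (the overall median of 170.4 divided by 4) was added before taking log2, and probe sets above 85.2 on at least 3 arrays were tested, 14935 in all. The precision is limited by the number of arrays.

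Tests used limma 3.58.1 in R 4.3.3 (1 mean per genotype over 24 arrays, eBayes with an intensity trend). They were two-sided, with Benjamini-Hochberg adjustment over all tested probe sets of a contrast and a threshold of 0.05. Members, gene lists and the naming rule were chosen with earlier results of these data known. Values on every array are given for the 12 members with the largest fall and the 8 brightest; others were named after their values were seen. Function groups were assigned from general knowledge after the members were known. Of 22746 probe sets, 13513 had 1 gene in the platform annotation, 503 several and 8730 none; 13436 matched the RefSeq table of TAIR10.1, used for names, chromosomes and neighbours only. Lists matched by name used symbols and synonyms, and those on pectin, lipid transfer, HAD, SAUR, auxin, GDSL, chlorophyll-binding and transcription factor genes found none. Promoters and protein sequences were not analysed here.

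Replicate numbers were checked for pairing. Same-numbered arrays deviated together (r above 0.1 for each number) in pap1-D/tt4 against pap1-D (0.200, 0.125 and 0.131), WOX1-1 against pap1-D (0.560, 0.177 and 0.303) and pap1-D against MYB12OX (0.302, 0.139 and 0.143), but not for each number in the other 3 pairs. Alternatives were other offsets and filters, quantile normalization, fewer arrays, array weights, no trend, the replicate number as a block, the listing place as a covariate and leaving out each array.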

Additional observations from a re-analysis of the deposited data

How the results depend on the processing

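With the listing place as a covariate, 0 members were called lower in MYB12OX/tt4 against MYB12OX, pap1-D/tt4 against pap1-D, WOX1-1 against MYB12OX, WOX1-1 against pap1-D, pap1-D against MYB12OX and pap1-D/tt4 against MYB12OX/tt4. That model called 45, 136, 90, 2, 30 and 34 of the 14935 tested probe sets in these comparisons, in either direction. It estimates the trend within genotypes, and the cause of the change was not tested. Under it 51 and 54 of the 97 members had positive values in the CHS pairs, and the sign turned for 26 of the 45 single-gene results recomputed in each alternative. Under MYB12OX these were AT1G73600 at 0.49, AT1G60590 at 1.38, AT1G72920 at 1.06, AT3G21670 at 1.00, AT5G59130 at 1.03, AT3G57020 at 0.86, AT3G56080 at 0.78, BGLU44 at 0.35, CaS at 0.57, AT5G57345 at 0.62 and AT4G27700 at 0.47. Under pap1-D these were AT1G73600 at 0.57, AT1G60590 at 1.51, AT1G72920 at 1.497, AT3G21670 at 1.26, AT5G59130 at 0.98, AT3G57020 at 0.80, AT3G56080 at 0.86, BGLU44 at 0.35, CaS at 0.40, AT4G27280 at 0.11, AT5G57345 at 0.38, AT4G27700 at 0.56, ORA47 at 2.05, AT4G24380 at 3.25 and AT4G29780 at 5.61. Of the 26 turned values only that of AT3G21670 under pap1-D passed the threshold (adjusted p = 0.0453). The values of ORA47, AT4G24380 and AT4G29780 had SEs of 1.25, 1.37 and 2.20 (adjusted p = 0.477, 0.269 and 0.233). In the other alternatives that kept all arrays, the counts for MYB12OX/tt4 against MYB12OX lay between 77 and 89 and those for pap1-D/tt4 against pap1-D between 76 and 89. With only the 2 genotypes compared they were 91 and 79. Leaving out 1 array gave 81 to 87 and 79 to 88. For WOX1-1 against MYB12OX leaving out 1 array gave 12 to 37, and the replicate block, where the numbers share only a number, gave 51 for it, 87 for MYB12OX/tt4 against MYB12OX and 2 for pap1-D/tt4 against MYB12OX/tt4. WOX1-1 against pap1-D gave 2 with the replicate block, and 0 on the 15 arrays alone, with the block on these, without a trend or without pap1-D replicate 1 and WOX1-1 replicate 1; leaving out 1 array gave 0 to 1. pap1-D against MYB12OX gave 4 with the replicate block, 2 with an offset of 100, on the 15 arrays, with the block on these or without the 2 arrays that stood apart, and 0 with a filter on the mean signal; leaving out 1 array gave 0 to 2. pap1-D/tt4 against MYB12OX/tt4 gave 1 without a filter, on the 15 arrays, with the block on these, with array weights, without a trend or without the 2 arrays; leaving out 1 array gave 0 to 2. The interaction stayed at 0 in each alternative. The count for array number was 3 without a filter, 12 with array weights, 1 without a trend and 0 without the 2 arrays, and leaving out 1 array gave 1 to 9. Over 45 single-gene results and 1658 alternatives, 66 lost their call with the sign kept, 19 of them with the listing place, and 9 gained one. The block on the 15 arrays and the fit without pap1-D replicate 1 and WOX1-1 replicate 1 were chosen after seeing the data.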
